A study of Homo sapiens with 4 samples.

Results

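The Hippo pathway genes described here are 10 in number and were taken by symbol from the count table: the coactivators YAP1 and WWTR1, the transcription factors TEAD1, TEAD2, TEAD3 and TEAD4, the kinases LATS1 and LATS2, and the target genes AMOTL2 and ANKRD1. All 10 were found among 34545 gene symbols, and all 10 passed the filter on low counts, which left 15302 genes for testing. RNA was sequenced from cells labelled as the DLD-1 line, a line from a human colorectal carcinoma, of wild-type genotype. There were 2 control libraries and 2 libraries from cells given creatine, a guanidino compound that buffers cellular energy. The series concerns creatine and ferroptosis. The labels give neither the dose of creatine nor how long it was applied.

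The Hippo pathway is a kinase cascade that restrains growth in response to cell contact, shape and energy stress. The kinases MST1 and MST2 (genes STK4 and STK3) activate LATS1 and LATS2, which phosphorylate YAP (YAP1) and TAZ (WWTR1) so that they are held in the cytoplasm or degraded. Unphosphorylated YAP and TAZ enter the nucleus and bind TEAD factors, which carry them to DNA, and in the intestine the pathway is known for its part in regeneration and tumour growth. AMOTL2 and LATS2 are both targets of YAP and TEAD and inhibitors of YAP, and ANKRD1 is a widely used readout of YAP activity. The pathway is controlled largely through phosphorylation and location, which RNA levels do not measure.

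Total counts were between 48249693 and 59860043 per library. Whether the 2 libraries of a group are separate cultures is not in the labels, and the p-values here reflect library-to-library spread that could be technical alone. Of 10 colon epithelial markers, 8 were under 1 CPM (counts scaled to library size) in every library, among them CDX1 at 0 counts in all 4 and EPCAM and CDX2 at 0 counts in 3 of 4, while vimentin (VIM) stood between 2328 and 2686 CPM. Such levels go against the epithelial origin in the label, and the libraries are named as labelled throughout. The summed level of the epithelial list, nearly all of it from KRT8 and KRT18, was 391 to 395 CPM in controls and 327 to 341 CPM with creatine. The 9 mesenchymal markers summed to 5975 to 6083 and 5367 to 5460 CPM in the same order, a sum carried by VIM and MMP14. Of these 9, 1 rose and 1 fell: ZEB1 went from 64.6 and 59.9 to 80.1 and 85.6 CPM and MMP14 from 2029 and 2144 to 1778 and 1776 CPM. The endothelial list, nearly all TIE1, summed to 372 to 385 and 313 to 317 CPM, and the immune list, nearly all CD68, to 170 to 179 and 148 to 150 CPM, and both of these genes fell. The part of these shifts in the results was not tested. In such bulk libraries, fewer cells of a kind and less RNA per cell cannot be told apart.

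Changes across all genes followed the GC content of their transcripts. Of 5761 tested genes with GC under 45%, 1217 rose and 17 fell, and of 4252 with GC over 55%, 29 rose and 1189 fell (edgeR, adjusted p under 0.05). Slopes were taken on log2 CPM less each gene's mean over all libraries, so they are relative between libraries. Per 10 points of GC they were 0.08 and 0.12 in the control libraries and -0.12 and -0.07 in the creatine libraries. The trend thus separated the groups, and a response to creatine of that shape and a technical GC trend cannot be told apart here. Changes are therefore given as measured and again after a smooth trend of each library on GC content and gene length had been removed, called corrected.

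TEAD factors bind the hexamer GGAATG, or CATTCC on the other strand. The promoter windows of the 3 members that are known YAP and TEAD target genes are shown because they hold this hexamer, with 250 bases before and 50 after an annotated RNA start, from RefSeq on GRCh38.p14, all on the minus strand and read 5′ to 3′. Capitals mark the hexamer.
ANKRD1 (chr10:90921038-90921337): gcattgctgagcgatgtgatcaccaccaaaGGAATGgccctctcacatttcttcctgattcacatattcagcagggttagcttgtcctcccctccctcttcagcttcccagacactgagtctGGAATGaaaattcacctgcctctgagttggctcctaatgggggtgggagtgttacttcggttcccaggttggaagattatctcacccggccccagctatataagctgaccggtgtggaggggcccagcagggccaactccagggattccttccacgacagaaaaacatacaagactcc
AMOTL2 (chr3:134374398-134374697): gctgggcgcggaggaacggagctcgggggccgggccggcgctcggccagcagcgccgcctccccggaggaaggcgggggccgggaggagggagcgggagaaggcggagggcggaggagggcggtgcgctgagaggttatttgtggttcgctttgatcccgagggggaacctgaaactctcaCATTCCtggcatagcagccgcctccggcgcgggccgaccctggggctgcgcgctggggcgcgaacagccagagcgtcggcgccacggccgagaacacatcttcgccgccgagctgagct
LATS2 (chr13:21061537-21061836): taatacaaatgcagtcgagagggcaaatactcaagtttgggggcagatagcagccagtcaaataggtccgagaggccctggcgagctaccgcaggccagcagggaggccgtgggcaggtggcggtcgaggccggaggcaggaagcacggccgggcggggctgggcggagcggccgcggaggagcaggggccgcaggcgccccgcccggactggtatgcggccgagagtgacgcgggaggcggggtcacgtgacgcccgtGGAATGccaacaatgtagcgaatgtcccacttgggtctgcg
The ANKRD1 window held it 2 times, beginning 220 and 128 bases before the start. The AMOTL2 window held it once, 69 bases before the start, and a second annotated AMOTL2 start had none in its window. In LATS2 it lay just after the start. A window was at hand for 8 of the 10 members, with 12 windows between them, of which 4, each of a different gene, held the hexamer. The fourth was that of YAP1 itself, 162 bases before its start. Of all 35116 windows of this length, 4928 held the hexamer on either strand and 482 (1.37%) held it 2 or more times. A match is a run of letters and does not show binding.

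**Figure D1:**
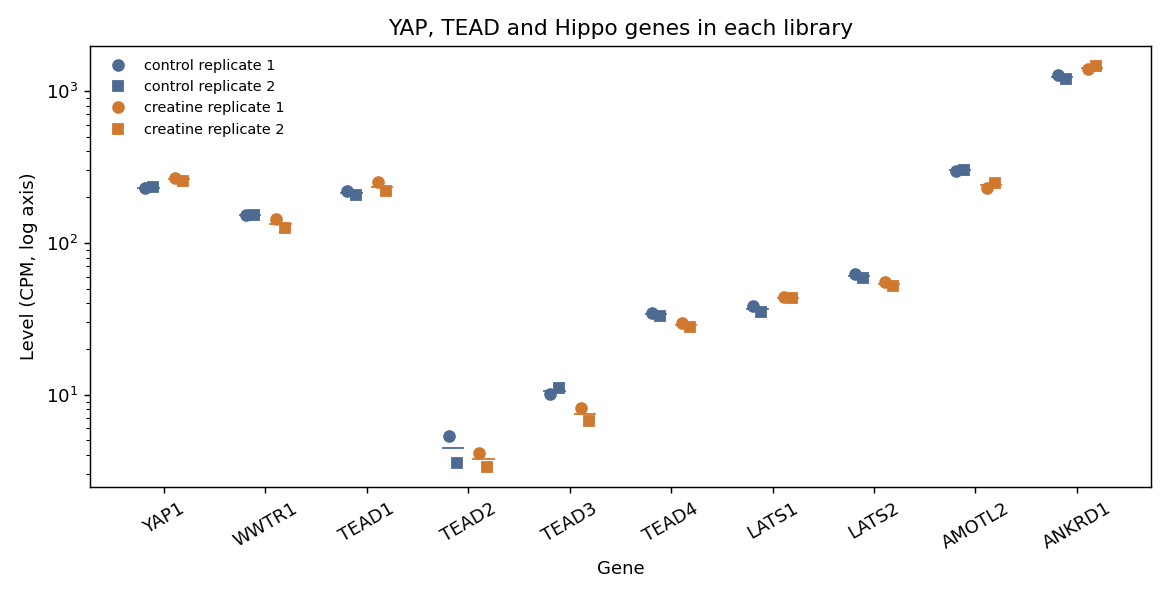
Level of each of the 10 genes in each library in CPM, on a log axis, with a line at the mean of the 2 libraries of a group. TEAD2 lies between 3.36 and 5.37 CPM and ANKRD1 between 1198 and 1460 CPM, and the groups overlap for TEAD1 and TEAD2 alone.

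Per length, ANKRD1 stood far above the other members, and each coactivator, kinase and TEAD family was led by one paralog. In RPKM, which divides CPM by gene length in kilobases, ANKRD1 was at 641 and 605 in the controls and 703 and 738 with creatine, rank 27 and rank 22 of the 15302 genes tested. AMOTL2 followed in the controls at 49.9 and 50.7 RPKM, then YAP1 at 36.4 and 36.8, TEAD1 at 21.3 and 20.03, WWTR1 at 18.1 and 18.2, and TEAD4 at 15.3 and 14.5. LATS2 at 11.1 and 10.5 RPKM, LATS1 at 4.44 and 4.05, TEAD3 at 3.32 and 3.64 and TEAD2 at 1.80 and 1.19 completed the order. No neighbours in that order overlapped between the control libraries. With creatine the order was the same except that YAP1, at 42.7 and 40.4 RPKM, lay first of a pair with AMOTL2, at 38.6 and 41.2, and these 2 overlapped. Lengths are those in the authors' table, and a gene whose cells use a shorter transcript would be placed too low.

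With creatine, AMOTL2 and TEAD3 fell, ANKRD1 rose, and the other 7 members did not pass the test (edgeR's quasi-likelihood test, adjusted over all genes). These 3 of 10 members compare with 19.6% of all genes tested that passed in either direction. Their median log2 fold change was -0.18, against 0.01 over all genes tested. The CPM of the 2 groups did not overlap for 8 members, of which 3 were higher and 5 lower with creatine, and 58.2% of all genes tested were likewise without overlap (29.2% higher and 28.9% lower). After the correction 1 member passed, WWTR1, which had not passed before, against 2.06% of all genes. Without creatine replicate 2, 1 member passed as measured, AMOTL2, where 12.1% of all genes did. Leaving a library out leaves its group with 1 library, which is then assumed to vary like the other group.

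**Figure D2:**
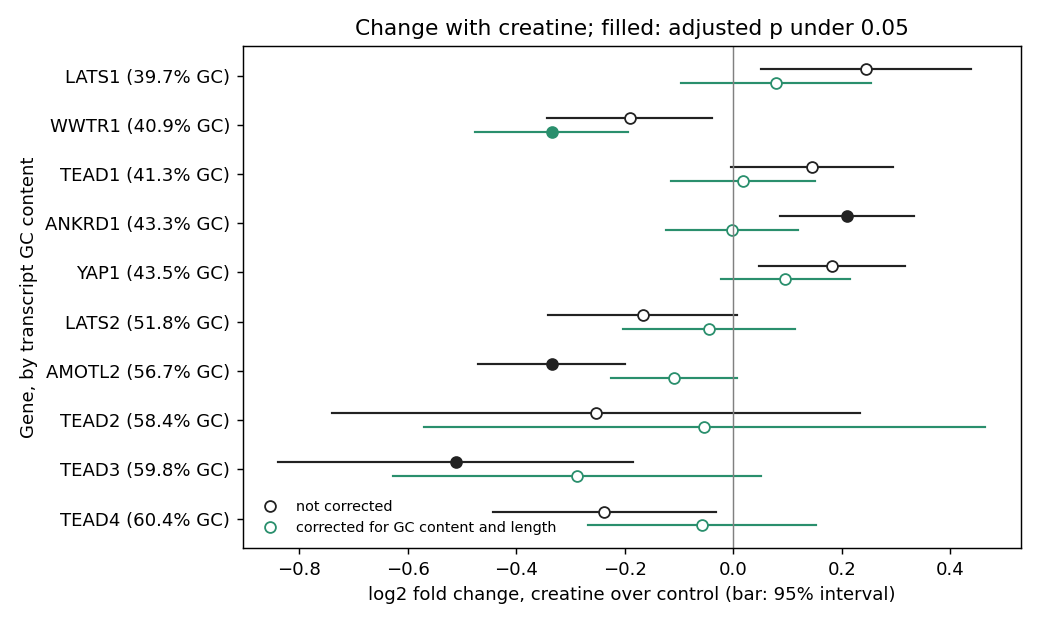
Log2 fold change of each gene, creatine over control, with its 95% interval, as measured (black) and corrected for GC content and length (green); filled points have an adjusted p under 0.05. Genes are ordered by transcript GC content: AMOTL2, TEAD3 and ANKRD1 are filled as measured, and WWTR1 alone is filled after the correction.

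The 2 coactivators had changes of opposite sign, and neither passed the test as measured. YAP1 (chromosome 11, 102110461 to 102233423, GRCh38) was at 229 and 232 CPM in the controls and 269 and 254 CPM with creatine. Both creatine libraries lay above both controls, by a log2 fold change of 0.18 (95% interval 0.05 to 0.32, adjusted p = 0.0514 by edgeR). That value lay on the threshold: DESeq2 gave an adjusted p of 0.0240 and limma-voom 0.0384. Other edgeR settings lay on both sides, from 0.0278 with a replicate block to 0.0636 with no low-count filter. With each library left out in turn, the log2 fold change of YAP1 was between 0.14 and 0.22. Corrected, YAP1 was at 0.10 (-0.02 to 0.22, adjusted p = 0.447). YAP1 has 2 annotated pseudogenes named after it, and the handling of multiply matching reads is not given. WWTR1, which encodes TAZ (chromosome 3, 149517235 to 149736714), was at 152 and 153 CPM in the controls and 143 and 125 CPM with creatine. Both creatine libraries lay below both controls, and creatine replicate 2 was the lowest. The log2 fold change was -0.19 (-0.34 to -0.04, adjusted p = 0.0710), and the corrected value was -0.33 (-0.48 to -0.19, adjusted p = 0.0196). When creatine replicate 2 was left out the corrected change of WWTR1 was -0.26 and missed the threshold (adjusted p = 0.108), and it passed without each of the other 3 libraries. WWTR1 shares its locus with the antisense gene WWTR1-AS1, and since the strand setting is not given, their reads may not be fully separated.

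The ratio of the 2 coactivators was the same in both controls and lower in both creatine libraries. The log2 ratio of WWTR1 over YAP1, per length, was -1.01 and -1.01 in the controls and -1.33 and -1.44 with creatine. The difference in means was -0.38, where the SD of the 2 libraries was 0.0039 in controls and 0.08 with creatine. YAP1 and WWTR1 have similar GC contents, 43.5% and 40.9%, and the shift was -0.43 after the correction. With 2 libraries a group the smallest two-sided p of an exact permutation test is 0.333, and this ratio is given as a description.

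Among the TEAD factors, which bind DNA for YAP and TAZ, TEAD3 fell and the others did not pass the test. TEAD3 (chromosome 6, 35473597 to 35497076) was at 10.1 and 11.1 CPM in the controls and 8.14 and 6.72 CPM with creatine, without overlap. The log2 fold change was -0.51 (-0.84 to -0.18, adjusted p = 0.0249), from 322 to 606 counts per library. The call was lost without control replicate 2 (-0.46, adjusted p = 0.0787) and without creatine replicate 2 (-0.39, adjusted p = 0.205), and after the correction (-0.29, adjusted p = 0.417). TEAD4 was at 34.7 and 33.1 CPM in the controls and 29.6 and 27.9 CPM with creatine, both below the controls, with a log2 fold change of -0.24 (-0.44 to -0.03, adjusted p = 0.0958) and a corrected value of -0.06. TEAD1, the most abundant of the 4, was at 219 and 206 CPM in the controls and 251 and 218 CPM with creatine. Creatine replicate 2 lay within the range of the controls, and the log2 fold change was 0.14 (-0.00 to 0.29, adjusted p = 0.170). Corrected, TEAD1 was at 0.02 (-0.11 to 0.15, adjusted p = 0.934). TEAD2 was at 5.37 and 3.54 CPM in the controls and 4.14 and 3.36 CPM with creatine, with overlap. Its interval was the widest of the 10, -0.74 to 0.23 around -0.25 (adjusted p = 0.512), and without control replicate 1 the sign turned to 0.08. Its corrected value was -0.05 (adjusted p = 0.952). TEAD2 lies over CD37 and DKKL1 on the opposite strand, and without a known strand setting their reads cannot be told apart.

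TEAD1 and TEAD4 held most of the summed TEAD level per length, and the TEAD1 share was higher in both creatine libraries; these shares are given with no test. TEAD1 held 51.0% and 50.8% of the summed TEAD level in the controls and 58.9% and 57.6% with creatine. TEAD4 held 36.7% and 36.9% in the controls and 31.4% and 33.4% with creatine. TEAD3 was at 7.96% and 9.25% against 6.43% and 5.99%, and TEAD2 at 4.33% and 3.02% against 3.34% and 3.06%. The shares of TEAD1, TEAD4 and TEAD3 did not overlap between the groups, and that of TEAD2 did. TEAD1 transcripts have a GC content of 41.3% and those of TEAD4 60.4%, and after the correction the difference in the TEAD1 share went from 7.30 to 1.92 percentage points. With GC content alone corrected, it was 0.400 points, and the difference in the TEAD4 share turned from -4.44 to 0.873 points. The summed level itself overlapped, at 41.7 and 39.4 RPKM in the controls and 41.5 and 36.8 RPKM with creatine.

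**Figure D3:**
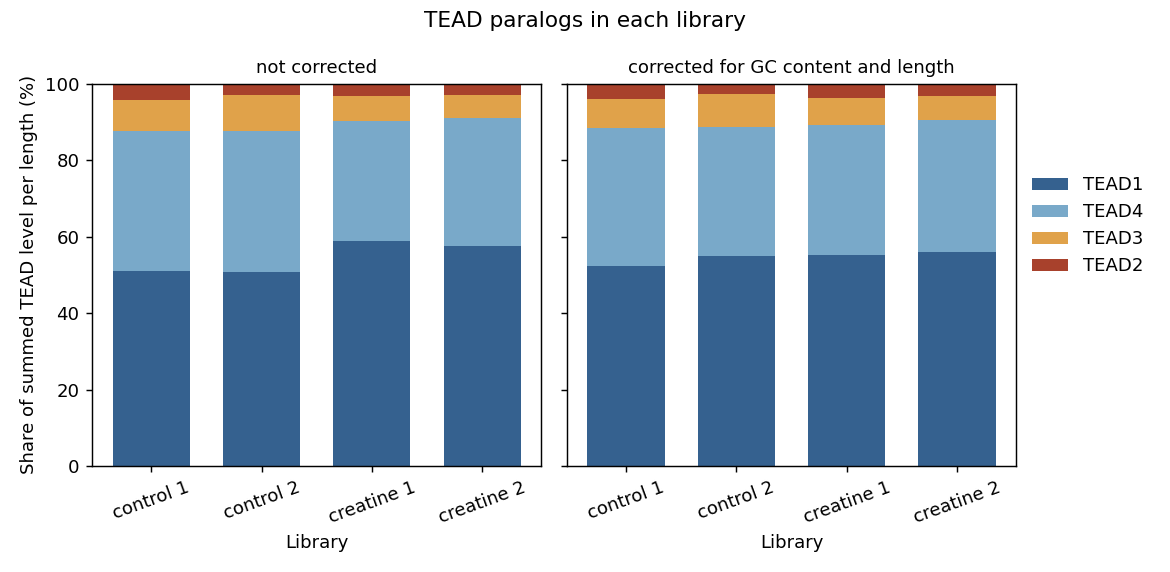
Share of each TEAD paralog in the summed TEAD level per length, in percent, for each library, as measured (left) and corrected for GC content and length (right). As measured, TEAD1 goes from 51.0% and 50.8% in the controls to 58.9% and 57.6% with creatine, and the right panel shows the smaller difference of 1.92 percentage points that was left after the correction.

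The LATS kinases, which phosphorylate YAP and TAZ, lay on opposite sides of 0 and neither passed the test. LATS1 was at 38.4 and 35.0 CPM in the controls and 43.8 and 43.1 CPM with creatine. The groups did not overlap, and the log2 fold change was 0.24 (0.05 to 0.44, adjusted p = 0.0682). LATS2 was at 61.9 and 58.3 CPM in the controls and 55.3 and 51.9 CPM with creatine, all lower, with a log2 fold change of -0.17 (-0.34 to 0.01, adjusted p = 0.176). LATS2 stood above LATS1 in every library, by a log2 ratio per length of 1.32 and 1.37 in the controls and 0.97 and 0.90 with creatine. LATS1 transcripts have 39.7% GC and LATS2 transcripts 51.8%, and after the correction the difference in this ratio went from -0.41 to -0.13. Corrected log2 fold changes were 0.08 for LATS1 and -0.04 for LATS2 (adjusted p = 0.723 and 0.846).

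The target genes AMOTL2 and ANKRD1 passed the test in opposite directions. AMOTL2, an angiomotin-like scaffold that binds and restrains YAP (chromosome 3, 134355874 to 134375479), was at 298 and 304 CPM in the controls and 231 and 246 CPM with creatine. Both creatine libraries lay well below both controls. The log2 fold change was -0.33 (SE 0.07, 95% interval -0.47 to -0.20, adjusted p = 0.00141), and the CPM fell by 20.7%. It was the only call among the members that held without each of the 4 libraries in turn, with adjusted p up to 0.0420. Corrected, AMOTL2 was at -0.11 (-0.22 to 0.01, adjusted p = 0.356). AMOTL2 overlaps the pseudogene RPL39P5 on the same strand, and reads of the overlap may not be fully separated. ANKRD1, a nuclear ankyrin-repeat protein with 2 copies of the TEAD hexamer in the window above (chromosome 10, 90912096 to 90921276), was at 1268 and 1198 CPM in the controls and 1391 and 1460 CPM with creatine. The groups did not overlap, and the log2 fold change was 0.21 (SE 0.06, 0.09 to 0.33, adjusted p = 0.0155). That call was lost without creatine replicate 1, where the log2 fold change was 0.24 (adjusted p = 0.0637), and without creatine replicate 2, where it was 0.17 (adjusted p = 0.223). Corrected, ANKRD1 was at -0.00 (-0.12 to 0.12, adjusted p = 0.989). Both targets carry the TEAD hexamer in their promoter windows, and the AMOTL2 transcript has 56.7% GC where that of ANKRD1 has 43.3%.

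Across the 10 members, the sign of the change went with GC content in all but WWTR1. Of the 5 members with GC under 45%, 4 had a positive log2 fold change, LATS1, TEAD1, ANKRD1 and YAP1, and WWTR1 a negative one. LATS2, at 51.8%, and the 4 members over 55%, AMOTL2, TEAD2, TEAD3 and TEAD4, were all negative. The median over all genes tested was 0.19 under 45% GC and -0.23 over 55%. Spearman's rank correlation between GC content and log2 fold change was -0.76 over the 10 members and -0.52 over 15279 genes, given as a description, since the genes come from the same 4 libraries.

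**Figure D4:**
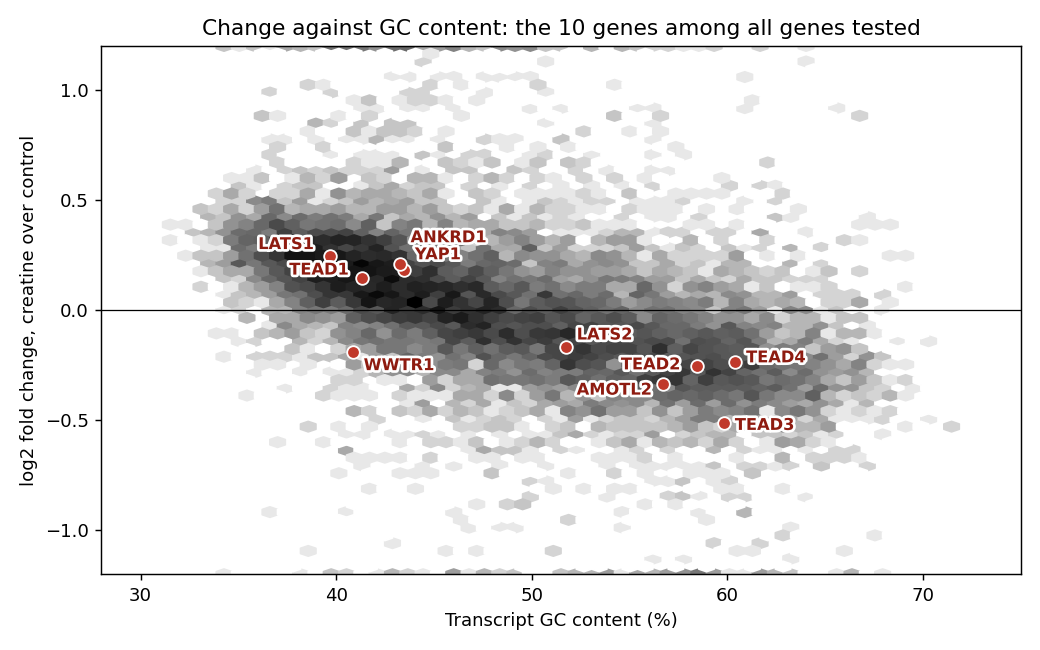
Log2 fold change, creatine over control, against transcript GC content in percent, for all genes tested (grey, darker where more genes lie) and the 10 members (red). Values past 1.2 in either direction, 346 genes, are drawn at the edge. WWTR1, at 40.9% GC and -0.19, is the only member under 45% GC drawn below 0.

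The kinases and scaffolds around LATS split in both directions. Of 38 such genes 37 were tested. With creatine 5 rose and 11 fell, and 21 missed the threshold, against 9.15% of all genes higher and 10.5% lower. Their median log2 fold change was -0.05. LLGL1, a basolateral polarity protein, fell most clearly, from 83.5 and 79.2 to 52.5 and 56.1 CPM (-0.59, adjusted p = 1.2e-04). The groups were far apart, and LLGL1 was the 1 gene of this list that also passed after the correction (-0.30, adjusted p = 0.0303). MINK1, a kinase of the MAP4K family that can activate LATS, fell by 0.46 (adjusted p = 5.6e-04), and the polarity protein SCRIB fell by 0.30 (0.00624). MAP4K3, another activating kinase, rose from 31.2 and 32.8 to 45.4 and 45.6 CPM (0.51, adjusted p = 9.6e-04). In the corrected fit MINK1 (-0.17), SCRIB (0.02) and MAP4K3 (0.33, adjusted p = 0.0600) did not pass.

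Some genes of the cascade itself were chosen by role after their values were seen. NF2 (merlin), the upstream scaffold, fell from 168 and 161 to 134 and 139 CPM (-0.27, adjusted p = 0.00803) and was at -0.05 after the correction. STK4 and STK3 (MST1 and MST2) were at 0.04 and -0.08 (adjusted p = 0.781 and 0.711), and their scaffold SAV1 at -0.05 (0.789). The LATS activators MOB1A and MOB1B were at 0.18 and 0.34 (adjusted p = 0.0627 and 0.0585). Of the paralogs of AMOTL2, AMOTL1 fell by 0.21 (adjusted p = 0.0438) and AMOT was at -0.19 (0.322), with corrected values of -0.13 and -0.18 that did not pass. Without creatine replicate 1, 3 of the 38 kinases and scaffolds passed, against 7.27% of all genes, namely LLGL1, MINK1 and MAP4K3.

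Of 11 genes that retain or degrade YAP and TAZ, the 14-3-3 protein gene YWHAZ rose, from 770 and 737 to 854 and 859 CPM (0.19, adjusted p = 0.0327), and 10 did not pass, where 9.15% of all genes rose. The median was 0.04. None fell with edgeR, DESeq2 or limma-voom, where 10.5%, 7.44% and 10.9% of all genes tested fell in that order. At an unadjusted p under 0.05 edgeR and limma-voom gave 0 lower and DESeq2 gave 1. Over all genes tested, that count was 2531 of 15302 with edgeR, 2544 of 15302 with limma-voom and 2335 of 21954 with DESeq2. YWHAZ did not pass without creatine replicate 1, without creatine replicate 2 or after the correction (0.04, adjusted p = 0.774).

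TEAD cofactors had 3 lower of 9 tested, out of 11 listed, where 10.5% of all genes were lower, with a median of -0.18. The AP-1 genes FOSL1, from 410 and 419 to 336 and 344 CPM (-0.29, adjusted p = 0.00337), and JUN, from 671 and 704 to 558 and 595 CPM (-0.25, adjusted p = 0.00690), encode factors that bind beside TEAD at many enhancers. The corepressor CTBP1 fell by 0.27 (adjusted p = 0.0150). VGLL4, which competes with YAP for TEAD, was at 35.1 ± 0.550 and 30.4 ± 0.964 CPM (SD, n = 2 each) and did not pass (-0.21, adjusted p = 0.145; corrected -0.07). VGLL4 was chosen after its values were seen. None of the 9 rose with edgeR, DESeq2 or limma-voom, where 9.15%, 6.20% and 9.97% of all genes tested rose in that order. At an unadjusted p under 0.05 with edgeR, 1 of the 9 was higher, where 2399 of all 15302 genes were. Corrected values of FOSL1, JUN and CTBP1 were -0.14, -0.06 and 0.02, and neither these nor the uncorrected ones without creatine replicate 1 passed.

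Of 26 further YAP and TAZ target genes, 22 were tested, of which 4 rose, 2 fell and 16 missed the threshold, where 9.15% of all genes rose and 10.5% fell. The median was -0.02. CCN1 and CCN2 were not analysed here, and AREG and IGFBP3 had at most 10 counts in any library. RBMS3, an RNA-binding protein gene, rose from 34.1 and 31.2 to 44.5 and 43.9 CPM (0.44, adjusted p = 0.00301; corrected 0.24, adjusted p = 0.162). GADD45A, a stress-response gene, rose from 504 and 563 to 621 and 639 CPM (0.24, adjusted p = 0.0127), and it was the 1 target gene that passed after the correction (0.25, adjusted p = 0.0282). The coagulation receptor F3 (tissue factor) rose by 0.23 (adjusted p = 0.0167) and ARHGEF17, a guanine nucleotide exchange factor, fell by 0.34 (0.0138). Their corrected values were 0.09 and -0.03 (adjusted p = 0.497 and 0.903). The receptor tyrosine kinase AXL was at 1330 and 1235 CPM in the controls and 1134 and 1178 CPM with creatine (-0.15, adjusted p = 0.0854). AXL was chosen after its values were seen. Across all the fits run for it, corrected ones included, the log2 fold change of RBMS3 ranged from 0.19 to 0.50.

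**Figure D5:**
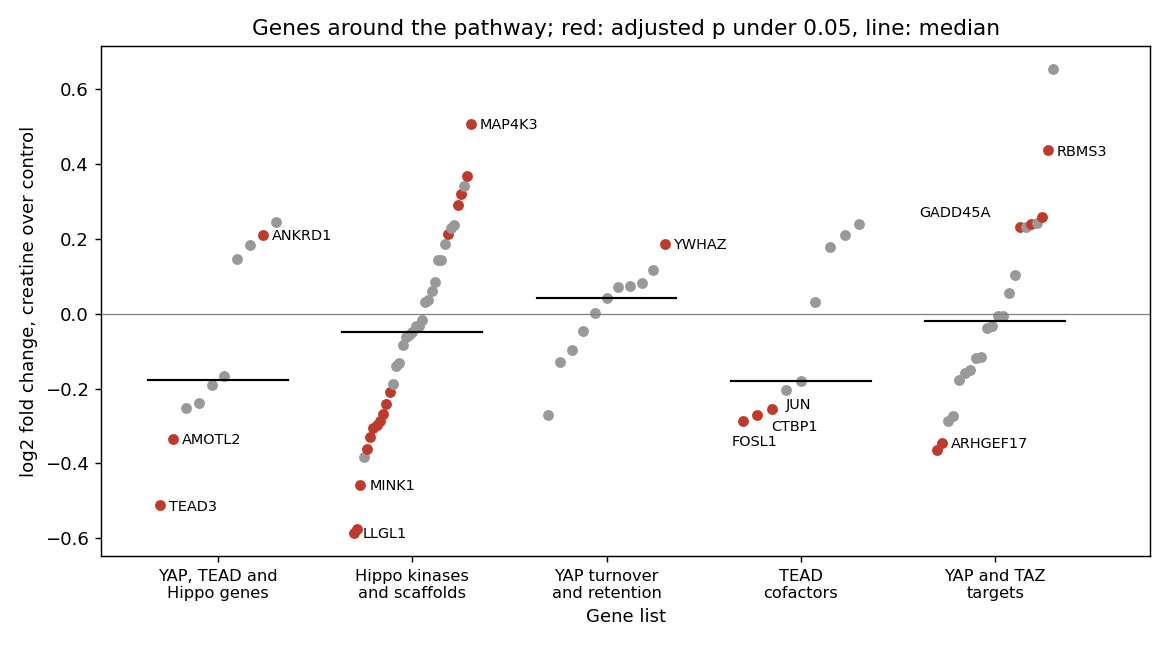
Log2 fold change, creatine over control, of each tested gene in the 10 members and the 4 surrounding lists, in rising order within a list. Red points have an adjusted p under 0.05 and lines mark the medians, from -0.18 for the members and for the TEAD cofactors to 0.04 for the YAP turnover and retention genes.

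The genes whose profiles over the 4 libraries were closest to those of the called members are named as a description. By the root mean square difference of centred log2 CPM, AMOTL2 was nearest to the elongation factor EEF2 (0.00278) and to RAB11FIP5 (0.00301), with 59.9% and 61.0% GC, and ANKRD1 to TMEM45A (0.00593) and TRAPPC8 (0.00657), with 37.7% and 40.8%. For TEAD3, which has few counts, the nearest profiles were those of LINC02208 and EFCAB7, which lay about as far from it as each other (0.0384 each). Their GC contents, 40.7% and 32.7%, are far from the 59.8% of TEAD3.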

How the data were processed

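Per the submitters' processing notes, reads were checked with FastQC 0.11.9, aligned with HISAT2 2.2.1 to GRCh38 and assigned with featureCounts, and DESeq2 is named as well. A TruSeq RNA kit was used on total RNA, per the labels' protocols. No source used here gives the annotation release, the strand setting or the handling of multiply matching reads. The table deposited by the authors holds raw whole-number counts for each gene symbol and a gene length in bases. A floor of 3 counts is 0.0501 to 0.0622 CPM per library, and it covers counting error only.

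Coordinates and GC content of the longest transcript came from GENCODE 29 (GRCh38), which matched 34408 of 34545 symbols. The median was given to 23 tested genes that lacked a GC value. The test was the quasi-likelihood test of edgeR 4.0.16 (R 4.3.3), after filterByExpr and TMM scaling (factors 0.993 to 1.01), with group as the sole term and Benjamini-Hochberg adjustment over 15302 genes at 0.05. CPM and RPKM were computed from the counts with the same factors. Positive log2 fold changes mean higher with creatine, and the 95% intervals use a median of 22.9 degrees of freedom, of which 2 are residual and the rest borrowed across genes. For each library, log2 CPM (prior count 1) less the gene's mean over the libraries was fitted on GC content and log2 length (mgcv 1.9.3). The centred fit entered as an offset, so the correction is relative between the libraries in a fit. Any change tied to GC content or length is removed with it, whatever its source.

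On simulated counts for creatine over control (14953 genes kept), the test found 32% of 50 genes altered 1.25-fold and 78% of those altered 1.5-fold. It found 94% of those altered 2-fold and all 50 altered 4-fold, and made 6 false calls. These figures hold for the simulated counts alone. The altered genes were drawn only from genes above a minimum mean count, so recovery below it was not measured. The 6 false calls are not an error rate for the libraries themselves, where changes followed GC content and separated the groups.

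The members and the 4 gene lists were chosen with earlier results of these data known. PTPN14 is in the lists of both scaffolds and targets. The genes named were the 10 members and the 4 called genes of lowest adjusted p in each list (fewer where fewer passed). The 2 nearest profiles of up to 3 called members were named too. CCN1 and CCN2 were planned as well but not analysed, so nothing is said of their levels. Cell type markers were listed to check the cell label, and any other gene given a fold change is marked as chosen with its values in view. Alternatives were other scalings, other filters, DESeq2 1.42.0, limma-voom (limma 3.58.1), a replicate block, corrections for GC content with or without length, and each library left out. Leaving out libraries within the corrected fit, and TEAD shares corrected for GC content alone, were added after the data were seen.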

Additional observations from a re-analysis of the deposited data

How the results depend on the processing

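The calls depended most on the GC trend. Changed genes went from 3001 to 315 after correction for GC content and length, to 420 after correction for GC content alone, and to 617 after the first correction with a replicate block. In the same order, 2.06%, 2.74% and 4.03% of all genes tested passed. Members changed were 1, 1 and 1 of 10, and Hippo kinases and scaffolds 1, 2 and 3 of 37. YAP and TAZ target genes changed were 1, 3 and 2 of 22. Turnover genes and TEAD cofactors changed were 0 in each of these edgeR fits. At an unadjusted p under 0.05, the first correction gave 1 higher and 1 lower turnover gene and 0 higher and 2 lower cofactors. Over all 15302 genes tested, that threshold gave 1256 higher and 1117 lower in the same fit. Differences in TEAD1, TEAD3 and TEAD4 shares were 1.92, -1.34 and -0.541 points after the correction and 4.18, -1.37 and -2.48 points without division by length. With GC content alone they were 0.400, -1.28 and 0.873 points, a fit added after the data were seen. The LATS2 over LATS1 difference was -0.13 after the first correction and -0.14 with GC content alone, and that of WWTR1 over YAP1 was -0.43 with GC content alone.

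With each library left out, changed genes ranged from 1162 to 3116, members changed from 1 to 4, kinases and scaffolds from 3 to 17, turnover genes from 0 to 1, cofactors from 0 to 4 and targets from 1 to 9. The number of genes tested and the share of all genes that passed also varied between these fits. The ranges for the members and lists therefore cannot be read apart from that of all genes. In the corrected fit, the log2 fold change of WWTR1 was -0.37 without control replicate 1 and -0.31 without control replicate 2. It was -0.44 without creatine replicate 1 and -0.26 without creatine replicate 2.

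Signs turned after the first correction, and with the block added to it, for ANKRD1 (-0.0027 and -0.0015), SCRIB (0.0212 and 0.0213), CTBP1 (0.0158 and 0.0152), TMEM45A (-0.0062 and -0.0069), STK4 (-0.0391 and -0.0393), MOB1A (-0.0343 and -0.0339) and AXL (0.0167 and 0.0170). With GC content alone they turned for TEAD1 (-0.0295), TMEM45A (-0.0262), STK4 (-0.0896) and MOB1A (-0.0560). With each library left out, TEAD2 ranged from -0.53 to 0.0810, STK3 from -0.23 to 0.0395 and STK4 from -0.0218 to 0.0813. In corrected fits with a library left out, signs turned for TEAD1 (-0.0049 without control replicate 2 and -0.0858 without creatine replicate 1), ANKRD1 (-0.0792 without control replicate 2 and -0.0587 without creatine replicate 2) and LATS2 (0.0067 without creatine replicate 2). Without control replicate 1 and without creatine replicate 2 they turned for TEAD2 (0.29 and 0.13) and TEAD4 (0.0342 and 0.0306). The causes were not tested beyond the corrections themselves.

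Whether the replicate numbers pair the samples is not known. The correlation of same-numbered deviations was -0.0188. It cannot decide this, since with 2 libraries a group the deviations within a group mirror each other. With the replicate block 6 members and 3795 genes changed, 24.8% of all tested. Other scalings and filters, DESeq2 and limma-voom gave 3 or 4 members, where between 13.6% and 26.4% of all genes tested passed. With 2 libraries a group, small changes at the depth of TEAD2 and TEAD3 could not be resolved.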
